A study of Rattus norvegicus with 939 samples.

Results

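The 8 genes described here carry bile acids through the liver cell: Cyp7a1, Cyp8b1 and Cyp27a1 make them, Baat conjugates them, Slc10a1 takes them up, Abcb11 and Abcb4 secrete bile components, and Nr0b2 restrains their synthesis. They were chosen by name through the platform annotation, 8 of the 14218 genes tested, and each is represented by 1 probe set, its only one on the array. The measurements came from the DrugMatrix collection of primary rat hepatocytes, liver cells kept in culture, exposed to toxicants and read on Affymetrix arrays as log2 values. Of 939 arrays, 826 held cells exposed to a named compound for 0.67 or 1 d and 113 held cells with vehicle alone. The vehicle field names dimethyl sulfoxide (DMSO) for every array, controls included, and polyadenylated RNA was extracted. The study describes the tissues of the whole collection as from male rats, without a separate statement for the hepatocytes, and strain and age are not given in the sources used here. The labels do not say that replicate treated arrays came from separate cultures, so p-values measure the spread between these arrays, which may be technical.

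Bile acids are made from cholesterol in the hepatocyte, joined to taurine or glycine, secreted across the canalicular membrane into bile, and recovered from the intestine through the portal blood. When they accumulate, the bile acid receptor Nr1h4 (FXR) induces Nr0b2 (small heterodimer partner), a repressor without a DNA-binding domain that lowers transcription of the synthesis enzymes, and export through Abcb11 rises. Drugs that block or lower canalicular export are known causes of cholestasis, the arrest of bile flow.

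The arrays fell into 5 campaigns by RNA extraction day. The first held 824 arrays with 120 compounds and 88 controls, the second 4 kinase inhibitors with 10 controls, the third cerivastatin with 6 controls, the fourth a repeat of chlorpromazine, and the fifth 3 doses each of 6 compounds at 1 d with 3 controls. The first 3 campaigns gave 125 compound comparisons, most with 3 treated arrays at each time, against the controls whose descriptions name the compound. Several compounds share the same controls, so their comparisons are not independent. The 18 measured hepatocyte markers had control means from 9.11 to 14.34, the latter that of albumin (Alb), and none of them was at the bottom of the scale. The highest value on any array was 14.54, so the strongest markers stood near the top. Whether this compressed their changes was not tested. Markers of other liver cells had control means of 4.09 to 10.20 (Kupffer cell, 7 genes), 4.41 to 7.50 (endothelial, 6), 3.93 to 8.67 (cholangiocyte, 6) and 4.65 to 8.81 (stellate, 7).

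Promoter sequences were at hand for 6 of the 8 genes, and not for Cyp7a1 and Abcb11. The 250 bases before the start that the RefSeq table gives for 4 of them are printed because 2 of these genes were lowered by many compounds and share a rare word, 1 was lowered by many and holds a nuclear receptor hexamer more than once, and 1 was the member raised most strongly. Sequences are those of RefSeq on assembly GRCr8: Baat at chr5:68656138-68656387 and Abcb4 at chr4:26164146-26164395, both on the minus strand, Slc10a1 at chr6:106357945-106358194 on the minus strand, and Nr0b2 at chr5:151062910-151063159 on the plus strand. For Abcb4 that start lies 295 bases inside the annotated span of the gene, which ends at 26164440, so its window precedes an inner start and is itself within the gene, whereas the other 3 windows adjoin the end of the span. Each reads 5′ to 3′ along the gene, and capitals mark the words searched.
Baat: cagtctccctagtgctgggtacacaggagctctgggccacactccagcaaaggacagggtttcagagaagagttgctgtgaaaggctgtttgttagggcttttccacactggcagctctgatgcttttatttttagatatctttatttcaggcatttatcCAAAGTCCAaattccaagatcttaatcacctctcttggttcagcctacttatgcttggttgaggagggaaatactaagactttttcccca
Abcb4: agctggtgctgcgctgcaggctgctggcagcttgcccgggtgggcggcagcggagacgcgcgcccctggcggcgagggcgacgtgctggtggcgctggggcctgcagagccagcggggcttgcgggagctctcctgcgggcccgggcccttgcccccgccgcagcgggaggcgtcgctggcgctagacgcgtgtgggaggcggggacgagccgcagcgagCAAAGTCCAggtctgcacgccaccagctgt
Slc10a1: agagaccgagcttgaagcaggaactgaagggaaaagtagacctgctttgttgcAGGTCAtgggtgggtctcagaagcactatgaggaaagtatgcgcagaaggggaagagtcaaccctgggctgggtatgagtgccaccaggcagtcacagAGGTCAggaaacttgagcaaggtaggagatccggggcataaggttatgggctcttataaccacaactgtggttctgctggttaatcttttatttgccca
Nr0b2: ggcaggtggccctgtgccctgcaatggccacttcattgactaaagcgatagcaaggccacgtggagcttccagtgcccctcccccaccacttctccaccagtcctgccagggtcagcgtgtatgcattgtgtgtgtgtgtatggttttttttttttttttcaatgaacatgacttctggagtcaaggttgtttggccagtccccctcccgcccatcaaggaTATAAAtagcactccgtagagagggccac

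The word CAAAGTCCA, a form of the HNF4-type repeat, stood in Baat from −90 to −82 and in Abcb4 from −30 to −22 relative to the start of each window's gene in the table, an inner start for Abcb4. On either strand it occurred in 113 of 33469 promoters of this length, 0.338%. AGGTCA, the hexamer bound by many nuclear receptors, began at −197 and −99 in Slc10a1, occurred in Cyp27a1 as well (there before a start 1130 bases inside the gene), and was found in 14.1% of all promoters. TATAAA stood at −29 to −24 in Nr0b2 and in 12.9% of all promoters. CAAGGTCA, which contains AGGTCA and is known as a response element of NR5A and ERR receptors, occurred in Cyp27a1 and in 1.33% of all. The inverted repeat of AGGTCA with a spacer of 1 base, the usual FXR element (0.0269% of promoters), and the direct repeat of AGTTCA with a spacer of 5 bases, a retinoic acid receptor element (0.00896%), were in none of the 6 promoters searched. A match is a description of letters in this window.

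Over the 125 comparisons, members were lowered far more often than raised. A gene was called when its limma p, after Benjamini-Hochberg adjustment across the 14218 genes, was at most 0.01 and the change reached 1.5-fold. Of 1000 pairs of a member and a compound, 254 were called lower and 36 higher, while 4.97% of all gene and compound pairs were called lower and 3.73% higher (8.71% in all). In these bulk samples, fewer living hepatocytes and less RNA per cell cannot be told apart. Of the 125 compounds, 88 lowered at least 1 member, 21 raised at least 1, 13 did both and 29 did neither, 9 of which led to no call of any gene. Lowering of a single member occurred with 18 compounds, of 2 with 17, of 3 with 22, of 4 with 21, of 5 with 8, and of 6 with zidovudine at 14800 uM (9.72% of all genes lower) and vinblastine at 45 uM (17.1%), each of which lost 1 of these calls with the replicate block.

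**Figure D1:**
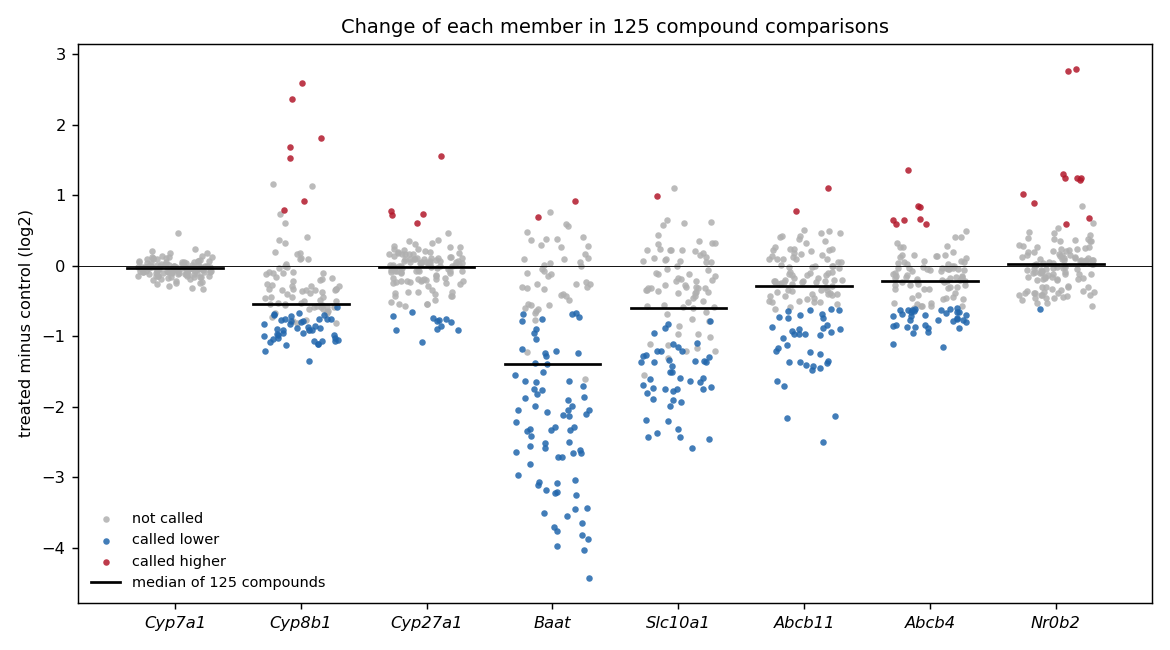
Each point is 1 compound, placed by its log2 change of treated minus control (vertical axis) for each of the 8 genes (horizontal axis), with called decreases in blue, called increases in red and the median of 125 compounds as a black bar. Baat reached −4.42 and had a median of −1.40, Nr0b2 reached 2.78, and Cyp7a1 stayed between −0.34 and 0.46.

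Hepatocyte markers moved with these decreases. Among the 88 compounds that lowered any member, the median change of the 18 hepatocyte markers ranged from −0.91 to 0.29 with a median of −0.19, and among the others from −0.29 to 0.16 with a median of 0.01. Up to 11 of the 18 markers were called lower with the same compound, and with 7 of the 88 compounds none was. Across the list 17.2% of pairs were called lower. Apob (apolipoprotein B) was lowered by 71 compounds and Cps1 (the first enzyme of the urea cycle) by 75, while 6 markers, Alb, Apoh, Ass1, Hpd, Hpx and Serpina1, were lowered by none, and 2.0% of pairs were called higher. Of the pairs of other markers, 13.5% were called lower for endothelial, 9.71% for stellate, 7.2% for Kupffer cell and 3.2% for cholangiocyte genes, and 0%, 0%, 3.09% and 2.53% higher. The part of these markers in the results was not tested.

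The rate-limiting enzyme of the classic pathway, Cyp7a1, was not called with any compound. Its control values lay between 3.40 and 4.85 (mean 3.81 ± 0.22 SD, n = 113), at the 14.6th percentile of probe sets in the control arrays, and over all 939 arrays between 3.13 and 5.43. Changes ran from −0.34 with staurosporine to 0.46 with sulindac, and 9 of 125 had an unadjusted limma p under 0.05. Sulindac (limma adjusted p = 0.00645), L-buthionine sulfoximine (−0.31, adjusted p = 0.00256) and venlafaxine (−0.29, adjusted p = 0.00439) passed the bound of 0.01. All of them fell short of 1.5-fold. With so narrow a range near the low end of the scale, a change of the transcript below the reach of the probe set was not detectable, and no detection call was used here.

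Sterol 12-alpha-hydroxylase, Cyp8b1, which sets the share of cholic acid in the bile acid pool, was called lower with 43 compounds (34.4%) and higher with 7. As many decreases or more were seen for 674 of the 14218 genes, 4.74%. Its strongest increase was with the HMG-CoA reductase inhibitor simvastatin at 160 uM. The 3 treated arrays at 0.67 d gave 6.42, 8.13 and 8.50 against 5.58 to 6.55 (median 5.98) in 6 controls, and at 1 d 8.30, 9.49 and 9.53 against 5.05 to 6.44 (median 5.43). At 0.67 d the lowest treated array lay within the control range, and at 1 d all 3 lay above it. The change was 2.58 (SE 0.34, 6.00-fold, limma adjusted p = 1.53e-05).

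Fenofibrate at 250 uM, a PPARa agonist, raised Cyp8b1 by 2.36 (SE 0.24, adjusted p = 1.01e-08), with treated arrays of 8.02 to 8.90 at 0.67 d and 8.15 to 8.40 at 1 d, all above the highest of 11 controls at each time (7.15 and 7.23). The alkylating agent chlorambucil at 1540 uM gave 1.81 (SE 0.35, adjusted p = 0.00642), a call that was lost without replicate 2, without replicate 3 and without variance moderation (adjusted p = 0.028). Ethanol at 180000 uM gave 1.68, valproic acid at 1000 uM 1.53, sulindac at 750 uM 0.91 and sporidesmin A at 0.15 uM 0.80. The sporidesmin A call was lost without replicate 1 and without replicate 2, and the sulindac call with the replicate block (0.86).

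The largest decrease of Cyp8b1 was with the tricyclic antidepressant nortriptyline at 70 uM. Treated arrays gave 4.99, 5.05 and 5.36 at 0.67 d against 5.76 to 6.82 (median 6.18) in 7 controls, and 4.50, 4.58 and 4.65 at 1 d against 5.59 to 6.70 (median 6.01). No treated array reached the controls, and the change was −1.35 (SE 0.16, limma adjusted p = 7.72e-07). The coxib valdecoxib at 450 uM (−1.22, SE 0.16, adjusted p = 6.28e-07) and the antifungal itraconazole at 10 uM (−1.13, SE 0.23, adjusted p = 0.000149) followed, and the itraconazole call was lost without replicate 1. Leaving out replicate 1 from all comparisons brought the decreases of Cyp8b1 from 43 to 25.

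Sterol 27-hydroxylase, Cyp27a1, the mitochondrial enzyme that oxidises the sterol side chain and opens the alternative pathway, moved seldom: 12 compounds lowered it (9.6%) and 5 raised it, and 15.0% of genes were lowered as often. Dexamethasone at 456 uM, a synthetic glucocorticoid, gave 11.81, 11.84 and 11.88 at 0.67 d against 10.26 to 10.51 in 4 controls, and 11.91, 11.92 and 11.96 at 1 d against 10.23 to 10.36. All 6 treated arrays lay above all controls, by 1.55 on average (SE 0.06, 2.92-fold, limma adjusted p = 2.75e-11). Smaller increases were seen with cytochalasin B (0.77), idarubicin (0.72), norethindrone (0.72) and sulindac (0.60), the idarubicin call was lost without replicate 1, and the sulindac call with the replicate block (0.57).

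Vinblastine, which prevents microtubule assembly, gave Cyp27a1 values of 9.10, 9.23 and 9.46 at 0.67 d and 8.91, 8.95 and 9.47 at 1 d. The 8 controls at each time lay between 10.11 and 10.46 and between 9.97 and 10.45, with no overlap. The change was −1.08 (SE 0.08, limma adjusted p = 5.58e-11). Colchicine at 2000 uM, another microtubule poison, gave −0.92 (SE 0.09, adjusted p = 2.52e-11) and the mycotoxin sporidesmin A −0.92 (SE 0.07, adjusted p = 6.47e-10).

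The conjugating enzyme Baat, which joins bile acids to taurine or glycine, was the most frequently lowered member: 77 compounds lowered it (61.6%) and 2 raised it. Only 47 of the 14218 genes, 0.331%, were lowered by as many compounds, and the median change over 125 compounds was −1.40, against 0.01 over all genes and compounds. The antidepressant amineptine at 1667 uM gave 5.00, 5.17 and 5.36 at 0.67 d against 9.55 to 9.74 in 3 controls, and 5.31, 5.55 and 5.68 at 1 d against 9.74 to 10.16. The 2 groups were separated by more than 4 log2 units at each time. The change was −4.42 (SE 0.09, 21.5-fold, limma adjusted p = 7.84e-12).

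The anti-inflammatory nimesulide at 61.7 uM gave Baat values of 5.26, 5.61 and 5.97 at 0.67 d and 5.04, 5.28 and 5.93 at 1 d, against 8.40 to 9.83 and 9.15 to 10.31 in 4 controls each. The treated arrays lay below every control, by 4.04 on average (SE 0.25, limma adjusted p = 1.33e-08). The proton pump inhibitor pantoprazole at 650 uM gave −3.98 (SE 0.31, adjusted p = 4.37e-08). At the other end, simvastatin raised Baat by 0.91 (SE 0.17, adjusted p = 0.000476) and fenofibrate by 0.69 (SE 0.11, adjusted p = 4.65e-05). With simvastatin the 1 d arrays of 10.56 to 10.77 lay above the controls (up to 9.98), while at 0.67 d the ranges overlapped. The fenofibrate call was lost without replicate 1.

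The sodium-dependent uptake carrier Slc10a1 (NTCP), which draws conjugated bile acids from the blood side, was called lower with 47 compounds (37.6%) and higher with 1. Of all genes 3.99% were lowered as often. The tricyclic doxepin at 132 uM gave 4.91, 5.47 and 6.31 at 0.67 d against 6.71 to 8.57 (median 7.92) in 8 controls, and 3.81, 4.04 and 5.46 at 1 d against 6.78 to 7.89 (median 7.39). The ranges did not overlap at either time, and the change was −2.58 (SE 0.26, 6.00-fold, limma adjusted p = 2.28e-08).

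The serotonin reuptake inhibitor fluoxetine at 58 uM gave a Slc10a1 change of −2.46 (SE 0.28, limma adjusted p = 1.61e-06), with 1 d arrays of 3.97, 4.14 and 4.25 against at least 6.17 in controls. The beta blocker labetalol at 250 uM gave −2.44 (SE 0.34, adjusted p = 0.000108). The anthracycline idarubicin at 1.5 uM gave the only called increase, 0.99 (SE 0.25, adjusted p = 0.00242). There the treated arrays reached 9.49 at 0.67 d and 9.03 at 1 d, but the lowest of each time, 8.08 and 6.98, lay within the control range. The idarubicin call was lost without replicate 2. Cisplatin at 63 uM gave a larger change of 1.10 (SE 0.45, adjusted p = 0.0497), not called. Fitted on single times, Slc10a1 was called lower with 10 compounds at 0.67 d and with 37 at 1 d. The test of the difference between times called no Slc10a1 pair, so these counts do not show that decreases deepened with time.

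The canalicular bile salt export pump Abcb11 was called lower with 39 compounds (31.2%) and higher with 2, and 5.45% of genes were lowered as often. Vinblastine gave 7.42, 7.61 and 8.53 at 0.67 d against 9.66 to 10.12 in 8 controls, and 5.53, 6.10 and 8.42 at 1 d against 9.18 to 9.87. Every treated array lay below every control, although the 3 arrays of 1 d spanned nearly 3 log2 units. The change was −2.50 (SE 0.27, 5.64-fold, limma adjusted p = 1.7e-08). The pyrrolizidine alkaloid monocrotaline at 333 uM (−2.16, SE 0.25, adjusted p = 4.86e-05) and the kinase inhibitor Mln-518 at 51 uM (−2.13, SE 0.28, adjusted p = 2.09e-05) came next.

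The 2 increases of Abcb11 were with dexamethasone and simvastatin. Dexamethasone gave 10.58, 11.02 and 11.08 at 0.67 d and 10.86, 11.03 and 11.28 at 1 d, against 9.82 to 10.45 and 9.56 to 9.79 in 4 controls each. All treated arrays lay above the controls, by 1.10 on average (SE 0.12, limma adjusted p = 5.63e-06). The simvastatin change of 0.78 (SE 0.17, adjusted p = 0.00166) was no longer called without replicate 1 or without replicate 2.

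The phospholipid flippase Abcb4, which supplies phosphatidylcholine to bile, was called lower with 35 compounds (28%) and higher with 8, with 6.24% of genes lowered as often. Its decreases were small: 2 of them reached 2-fold and were still called at that bound. Nimesulide gave 7.15, 7.24 and 7.37 at 0.67 d against 8.12 to 8.77 in 4 controls, and 7.07, 7.22 and 7.38 at 1 d against 8.28 to 8.47, with no overlap. The change was −1.15 (SE 0.10, limma adjusted p = 1.75e-07). Nortriptyline gave −1.11 (SE 0.13, adjusted p = 5.71e-07) and the cationic amphiphilic drug 4,4'-diethylaminoethoxyhexestrol at 20 uM −0.96 (SE 0.10, adjusted p = 7.28e-06).

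Dexamethasone raised Abcb4 as well. Treated arrays gave 9.02, 9.41 and 9.48 at 0.67 d and 9.74, 9.80 and 9.83 at 1 d, against 7.94 to 8.73 and 7.91 to 8.48 in 4 controls each, all above them. The change was 1.36 (SE 0.15, limma adjusted p = 2.79e-06). Valproic acid gave 0.84 (SE 0.10, adjusted p = 2.8e-06) and simvastatin 0.82 (SE 0.10, adjusted p = 6.38e-06), and 5 further compounds gave 0.59 to 0.66.

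Nr0b2, the repressor of bile acid synthesis, was called higher with 11 compounds (8.8%) and lower with 1. As many increases or more were seen for 1822 of the 14218 genes. Its control mean was 5.36 and its lowest value over all arrays 4.48. Decreases short of 1.5-fold were not called, such as −0.575 with colchicine at 2000 uM (limma adjusted p = 0.000126). Whether the level of Nr0b2 limited its decreases was not tested. The retinoids gave the largest increases. Tretinoin (all-trans retinoic acid) at 156 uM gave 7.08, 7.94 and 8.42 at 0.67 d against 5.02 to 5.80 (median 5.50) in 8 controls, and 7.77, 9.26 and 9.34 at 1 d against 5.06 to 6.12 (median 5.68). Isotretinoin, its 13-cis isomer, at 500 uM gave 6.85, 7.03 and 7.53 at 0.67 d against 4.97 to 5.36 in 4 controls, and 8.74, 8.99 and 9.54 at 1 d against 5.37 to 5.60. With both compounds all 6 treated arrays stood above all controls.

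The Nr0b2 change was 2.78 with tretinoin (SE 0.21, 6.88-fold, limma adjusted p = 1.87e-09) and 2.76 with isotretinoin (SE 0.24, 6.79-fold, adjusted p = 1.06e-07). The doses differed, so the isomers were not compared. The antihistamine loratadine at 62.25 uM followed with 1.31 (SE 0.16, adjusted p = 6.5e-06), its 1 d arrays of 6.66 to 7.49 all above the controls (up to 5.67). Cytochalasin B (1.25), ethinylestradiol (1.24), norethindrone (1.24), atorvastatin (1.21), simvastatin (1.02), danazol (0.89), beta-estradiol (0.67) and omeprazole (0.59) completed the list. The sole decrease was with valdecoxib, −0.62 (SE 0.08, 1.53-fold, adjusted p = 6.23e-07), and with array medians subtracted it was −0.56 and not called. Of the 11 compounds that raised Nr0b2, 5 lowered Cyp8b1 (danazol, ethinylestradiol, isotretinoin, omeprazole and tretinoin) and simvastatin raised it. Those 5 are 45.5% of the compounds that raised Nr0b2, and 34.4% of all 125 compounds lowered Cyp8b1. The danazol call of Cyp8b1 was lost with the replicate block (adjusted p = 0.014).

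**Figure D2:**
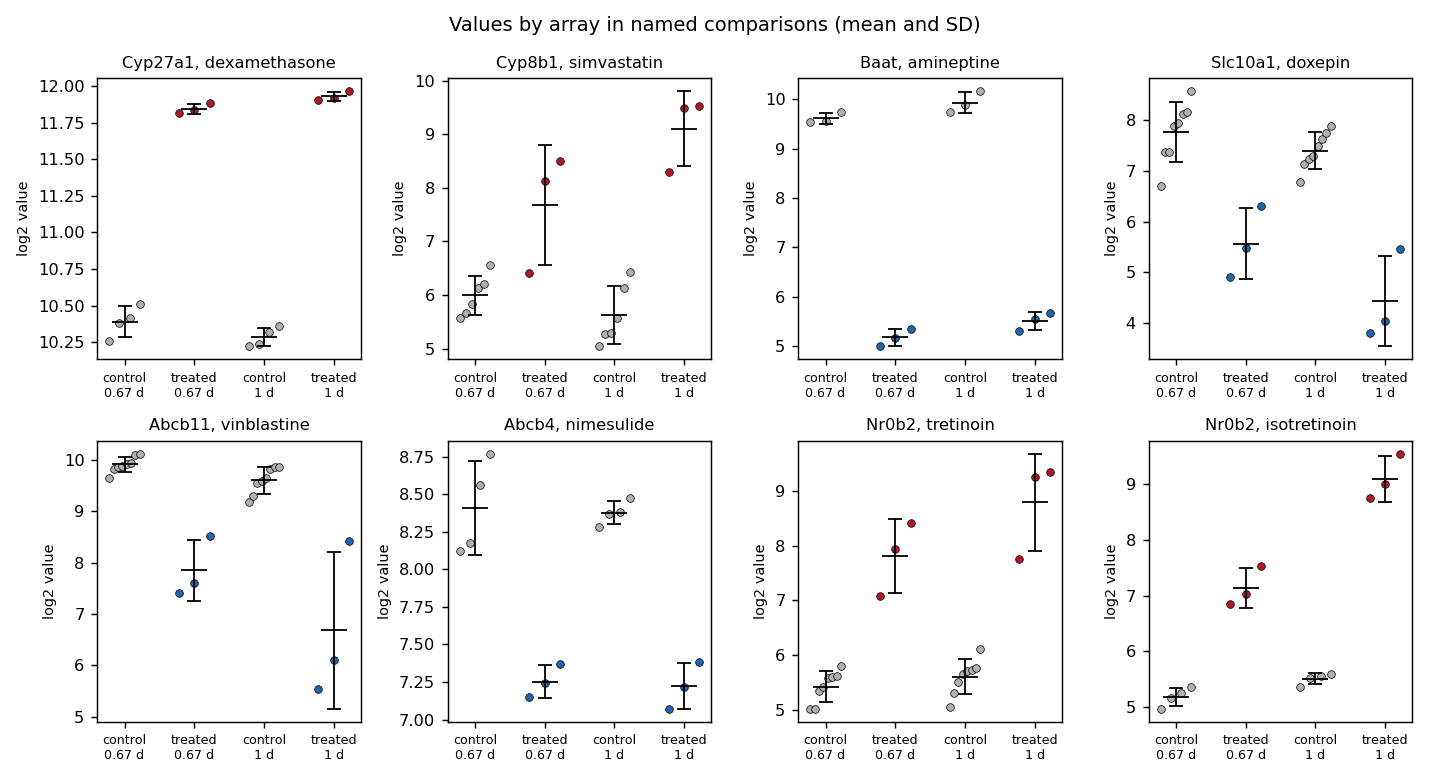
Each point is the log2 value (vertical axis) of 1 array for a gene and compound, with vehicle controls in grey, treated arrays of lowered genes in blue and of raised genes in red, at 0.67 and 1 d; bars give the mean and SD. With amineptine Baat lay between 5.00 and 5.68 and its controls between 9.55 and 10.16, whereas with simvastatin the lowest Cyp8b1 array at 0.67 d (6.42) lay within the control range.

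Baat was lowered by 61.6% of all compounds, which bears on every overlap with it. Of the 43 compounds that lowered Cyp8b1, 41 also lowered Baat, 95.3% of the former and 53.2% of the 77 compounds that lowered Baat. Baat was lowered by 34 of the 35 compounds that lowered Abcb4, 42 of the 47 that lowered Slc10a1 and 35 of the 39 that lowered Abcb11. Over the 125 compounds, which share control arrays and in each comparison the same treated arrays, the changes of Baat had a Pearson r of 0.66 with those of Slc10a1, 0.66 with Abcb4 and 0.65 with Cyp8b1. Over the 14217 other genes the r with Baat had a median of −0.08 and a 95th percentile of 0.63, close to these values. The changes of Nr0b2 gave r between −0.08 (Slc10a1) and 0.25 (Abcb11). With the median change of the 18 hepatocyte markers, r was 0.83 for Slc10a1, 0.71 for Baat, 0.57 for Cyp8b1 and −0.02 for Nr0b2.

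Among compounds known for cholestasis or bile duct and canalicular injury, most lowered Baat, as did 61.6% of all 125 compounds. The bile acid tested led to no call. Lithocholic acid at 74 uM, a secondary bile acid, led to no call among the 8 members, with 2.49% of genes called in either direction. Its Nr0b2 arrays gave 5.31, 6.65 and 6.95 at 0.67 d against 4.90 to 5.77 in 4 controls, and 4.84, 6.47 and 6.57 at 1 d against 4.88 to 5.55. At each time 2 treated arrays lay above the controls and the third did not, and the change of 0.84 (SE 0.30) had a limma adjusted p of 0.0648.

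1-Naphthyl isothiocyanate, a bile duct toxicant, was given at 166.67 uM by the dose field, while the titles state a higher dose. It lowered 4 members (4.77% of all genes lower), Baat by −1.40, Slc10a1 by −1.42, Abcb11 by −1.17 and Cyp8b1 by −0.71. The calls of Slc10a1 and Cyp8b1 were lost without replicate 1 and without replicate 2, that of Slc10a1 also with the replicate block (−1.27, adjusted p = 0.0124) and that of Cyp8b1 with array medians subtracted (adjusted p = 0.0111) and without variance moderation (adjusted p = 0.0146). 4,4'-Methylenedianiline at 296 uM, which also injures bile ducts, lowered 5 members (11.5% of genes), with Baat at −3.55 (SE 0.28, limma adjusted p = 4.35e-09), Abcb11 at −1.48 and Cyp27a1 at −0.85. Its Slc10a1 call (−1.10) was lost without replicate 1 or 3, with the replicate block (−0.95, adjusted p = 0.0153) and under 4 other alternatives (adjusted p from 0.0101 to 0.0236), and its Cyp8b1 call (−0.76) without replicate 2.

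Cyclosporin A at 10 uM, an inhibitor of the export pump, lowered Baat (−2.58), Abcb11 (−1.26) and Cyp8b1 (−0.77), 3 members where 8.19% of genes were lower. The Cyp8b1 call was lost without replicate 1 or 2. Ethinylestradiol at 190 uM lowered 4 members (8.72% of genes), Baat by −3.18, Slc10a1 by −2.32, Abcb11 by −1.20 and Cyp8b1 by −0.91, and raised Nr0b2 (10.5% of genes higher). The Abcb11 call was lost without replicate 2. In that group the Nr0b2 arrays were 5.02, 6.78 and 6.79 at 0.67 d and 4.94, 7.64 and 7.94 at 1 d, so that 1 array of each time stood within the control range. The Nr0b2 change of 1.24 (SE 0.34, limma adjusted p = 0.00442) became 0.85 without replicate 1 and 0.97 without replicate 2, no longer called, and 1.98 without replicate 3. Without variance moderation its adjusted p was 0.0121.

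Chlorpromazine at 43.9 uM, a phenothiazine, lowered 4 members (2.91% of genes): Slc10a1 (−1.93), Baat (−1.65), Abcb4 (−0.71) and Cyp8b1 (−0.69). The Cyp8b1 call was lost on leaving out any of the 3 replicates, and that of Slc10a1 without replicate 3. Without variance moderation the Cyp8b1 call was lost (adjusted p = 0.0187), and with all controls of the campaign Abcb4 was −0.57, short of 1.5-fold. Rifampin at 125 uM lowered Baat (−2.05), Slc10a1 (−1.36) and Abcb4 (−0.71), 3 members where 2.2% of genes were lower, and the Slc10a1 call was lost without replicate 1 or 3 and without variance moderation (adjusted p = 0.0108). With all controls of the campaign the Abcb4 change was −0.57, short of 1.5-fold. Phalloidin at 1 uM, which binds actin filaments, lowered Baat alone (−1.24, limma adjusted p = 0.000963, 0.352% of genes), a call lost on leaving out any replicate and without variance moderation (adjusted p = 0.0103). Sporidesmin A lowered Cyp27a1 and raised Cyp8b1 and Abcb4 (0.64), with 14.1% of genes lower and 4.85% higher, and the Abcb4 call was lost without replicate 1.

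Nuclear receptor ligands gave mixed profiles. Fenofibrate raised Cyp8b1 and Baat and lowered no member (1.63% of genes higher). Clofibrate at 500 uM in the first campaign led to no call of a member (0.106% of genes in either direction), with Cyp8b1 at 0.61 (SE 0.36). Gemfibrozil at 2000 uM lowered Baat (−2.29), Slc10a1 (−1.60) and Abcb4 (−0.88), 3 members where 12.3% of genes were lower. The doses of these 3 fibrates differed and their differences were not tested. In both the clofibrate and the gemfibrozil group 1 array stood apart, clofibrate replicate 1 at 0.67 d (Baat 6.92 against 9.70 and 10.30) and gemfibrozil replicate 1 at 1 d (Baat 10.43 against 6.64 and 7.07), both hybridized on the same day. For Baat, the clofibrate array lay near the gemfibrozil arrays of its time (6.39 to 6.67) and the gemfibrozil array near the clofibrate arrays of its time (10.16 to 10.56). The labels were kept, and whether the 2 arrays were exchanged was not tested. Without both arrays, an alternative chosen after seeing the data, gemfibrozil gave Baat −2.89 and also lowered Cyp27a1 (−0.76), Cyp8b1 (−0.70) and Abcb11 (−0.64), and clofibrate gave Cyp8b1 1.04 (limma adjusted p = 0.146) and Baat 0.59 (adjusted p = 0.0161), neither called, with 0.26% of genes called higher and 0% lower. Over all 125 compounds 257 decreases and 36 increases were then called. The gemfibrozil calls of Baat, Slc10a1 and Abcb4 were lost without replicate 2, and that of Abcb4 without variance moderation (adjusted p = 0.0141).

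Dexamethasone raised Cyp27a1, Abcb11 and Abcb4 (4.33% of genes higher) and lowered Baat by −1.18 (SE 0.17, limma adjusted p = 5.42e-05, 4.89% of genes lower). Its Baat arrays of 7.61 to 8.71 at 0.67 d and 8.03 to 8.68 at 1 d lay below all controls, while 6 of 18 hepatocyte markers were called higher and none lower. Isotretinoin lowered 5 members beside raising Nr0b2 (11.8% of genes lower and 9.32% higher), with Baat at −2.12 and Slc10a1 at −1.27. Tretinoin lowered Cyp8b1 (−0.98) and Slc10a1 (−0.79), 2 members where 4.81% of genes were lower and 2.73% higher. The Cyp8b1 call of tretinoin was lost without replicate 3 and the Slc10a1 call without replicate 1 or 2, with all controls of the campaign (−0.53), with array medians subtracted (adjusted p = 0.0105), with the replicate block (adjusted p = 0.038) and without variance moderation (adjusted p = 0.0161).

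Beta-estradiol at 250 uM lowered Abcb11 (−0.97) and Cyp27a1 (−0.80) where 5.75% of genes were lower and 6.01% higher. Its Abcb11 call was lost without replicate 1 and its Nr0b2 call without replicate 2 or 3, with all controls of the campaign (0.57) and with the replicate block (0.53). Diethylstilbestrol at 120 uM, a non-steroidal estrogen, led to no call of a member (8.1% of genes called). Cyp27a1 at −0.52 (limma adjusted p = 9.4e-05) and Nr0b2 at 0.46 (adjusted p = 0.00227) fell short of 1.5-fold. 3-Methylcholanthrene at 23 uM, a ligand of the aryl hydrocarbon receptor, lowered Slc10a1 (−1.29, adjusted p = 0.000146, 1.38% of genes), a call lost without replicate 1.

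**Figure D3:**
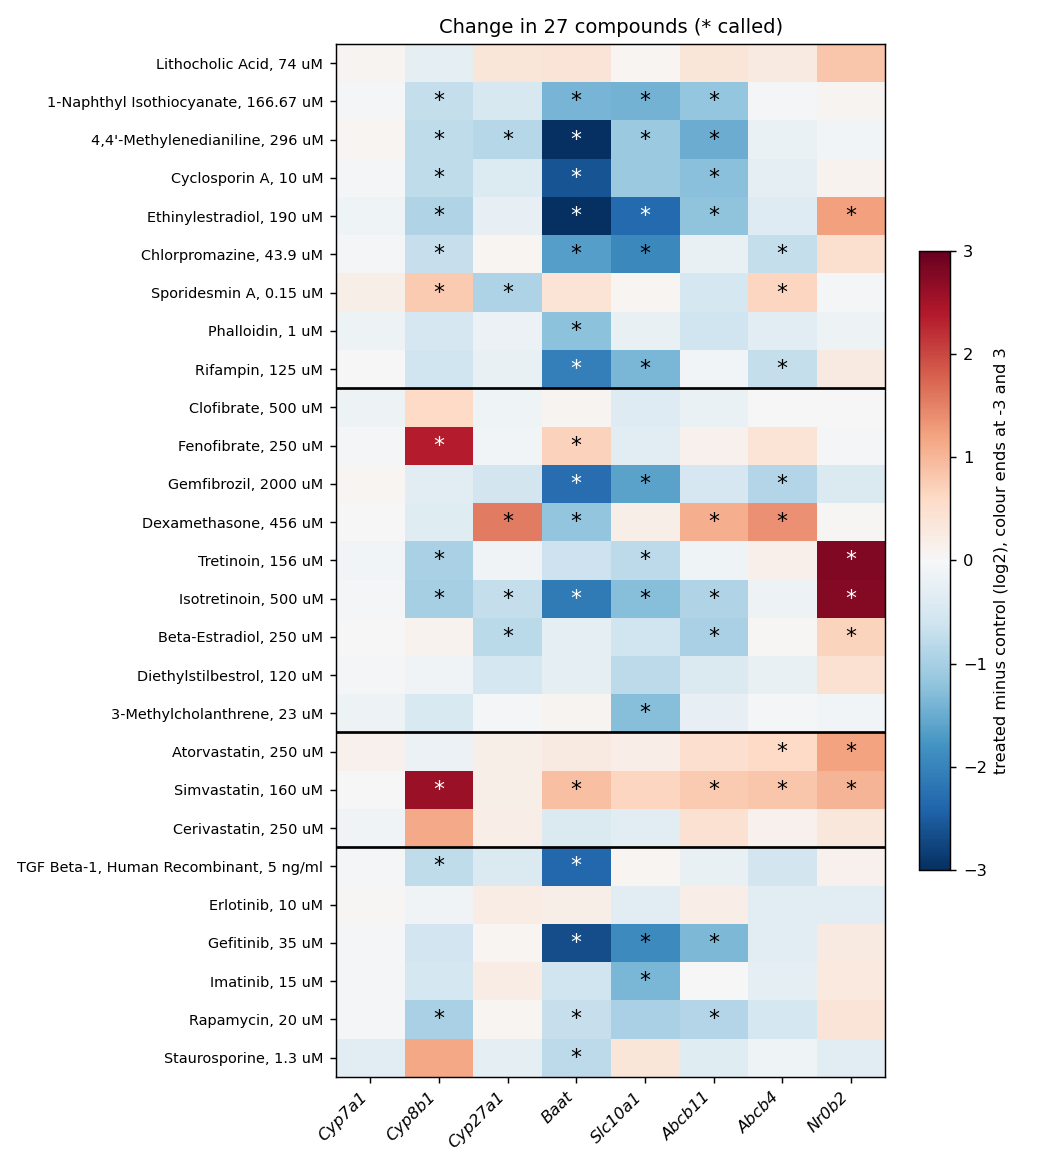
Rows are 27 compounds with their doses, in blocks of cholestatic or bile duct toxicants, nuclear receptor ligands, statins and signalling agents, and columns the 8 genes; colour gives the log2 change of treated minus control and an asterisk marks a call. Baat is called lower in most of the first block, as in 61.6% of all 125 compounds, and Nr0b2 reaches 2.78 and 2.76 with the retinoids.

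Among the statins, simvastatin raised 5 members (Cyp8b1, Nr0b2, Baat, Abcb4 and Abcb11) where 2.76% of genes were higher. Atorvastatin at 250 uM raised Nr0b2 (1.21, SE 0.15, limma adjusted p = 1.06e-05) and Abcb4 (0.59, SE 0.10, adjusted p = 0.000227), 2 members where 2.36% of genes were higher, and gave −0.18 (SE 0.20) for Cyp8b1. The Abcb4 call was lost without replicate 3. Cerivastatin at 250 uM, from another campaign with its own controls, led to no call of a member (6.18% of genes called). It gave 1.13 (SE 0.57, adjusted p = 0.199) for Cyp8b1. Differences between statins were not tested.

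Of the signalling agents, the cytokine TGF Beta-1 at 5 ng/ml lowered Baat (−2.35, SE 0.25, limma adjusted p = 1.69e-07) and Cyp8b1 (−0.75), 2 members where 2.55% of genes were lower, and gave 0.05 for Slc10a1. Its Cyp8b1 call was lost without replicate 1. Gefitinib at 35 uM, an EGFR kinase inhibitor, lowered Baat (−2.66), Slc10a1 (−1.91) and Abcb11 (−1.35), 3 members where 5.94% of genes were lower. The calls of Baat and Abcb11 were lost without replicate 2 and that of Slc10a1 without replicate 1. Erlotinib at 10 uM, an inhibitor of the same kinase at another dose, led to no call of a member (0.0844% of genes called).

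Imatinib at 15 uM lowered Slc10a1 (−1.37, limma adjusted p = 0.00517, 0.528% of genes), a call lost without replicate 1 or 2 and without variance moderation (adjusted p = 0.0231). Rapamycin at 20 uM, an mTOR inhibitor, lowered Cyp8b1 (−0.97), Abcb11 (−0.87) and Baat (−0.68), 3 members where 3.24% of genes were lower, the calls of Cyp8b1 and Baat being lost without replicate 1. The broad kinase inhibitor staurosporine at 1.3 uM lowered Baat (−0.78, 7.78% of genes), a call lost without replicate 1 or 2, while Cyp8b1 gave 1.16 (SE 0.31, adjusted p = 0.011), not called.

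The exposure times allowed the change at 1 d to be set against that at 0.67 d within each compound. The difference was called for Baat with colchicine at 2000 uM and for no other pair, where 0.0255% of all gene and compound pairs were called and 74 of the 1000 member pairs had an unadjusted limma p under 0.05. The colchicine arrays gave 6.41, 7.08 and 7.57 at 0.67 d against 8.67 to 10.07 (median 9.23) in 14 controls, and 5.80, 5.99 and 6.01 at 1 d against 9.04 to 10.06 (median 9.86). All lay below the controls, and the decrease deepened from −2.27 to −3.86, by −1.59 (SE 0.30, adjusted p = 0.00146). The call was lost without replicate 2 and without replicate 3. For Nr0b2 with isotretinoin the change was 1.95 at 0.67 d and 3.58 at 1 d, a difference of 1.63 (SE 0.25, adjusted p = 0.0109), which passed with replicate number as a block (adjusted p = 0.002).

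In the vehicle controls themselves the members drifted with time in culture, by less than 1.5-fold. Control titles carry a date code, taken here as the day of a set of cultures although the labels do not name it. Over 51 dates with arrays at both times, Abcb11 was lower at 1 d on all 51, with differences by date from −0.995 to −0.02 and a mean of 9.90 ± 0.23 (SD, n = 52) at 0.67 d and 9.53 ± 0.30 (n = 52) at 1 d. Baat was higher at 1 d on 43 of 51 dates, 9.30 ± 0.39 against 9.70 ± 0.37, and Slc10a1 lower on all but 5, 7.51 ± 0.68 against 7.14 ± 0.64. In the fit with this date as a block the differences were −0.37 for Abcb11 (SE 0.03, limma adjusted p = 2.49e-16), 0.40 for Baat (SE 0.06, adjusted p = 1.24e-08) and −0.37 for Slc10a1 (SE 0.08, adjusted p = 5.58e-05). Cyp8b1 differed by −0.21, Nr0b2 by 0.16, Abcb4 by −0.10, Cyp27a1 by −0.07 and Cyp7a1 by −0.06. None of the 8 reached the 1.5-fold bound of a call, and 0.668% of all genes were called. By adjusted p alone 7 of them were at 0.01 or less. The share of all genes that were is not given here, so no trait particular to the members is read from that count.

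**Figure D4:**
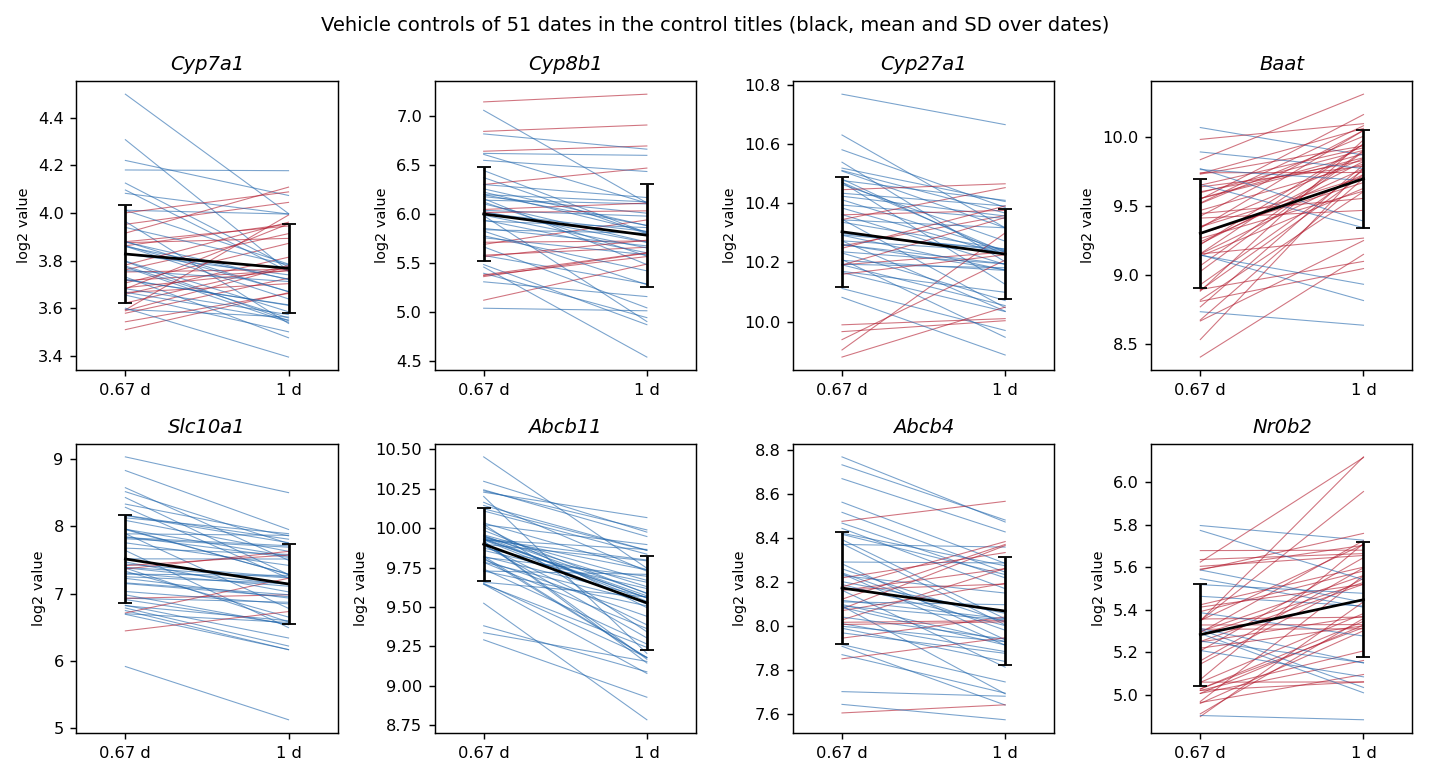
Each line joins the mean log2 value (vertical axis) of the vehicle controls of 1 title date at 0.67 and 1 d, red where higher at 1 d and blue where lower, and black gives the mean and SD over 51 dates. Abcb11 is lower at 1 d on every date and Baat higher on 43.

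A pair of doses was tested at both times for 3 compounds, and their values are set side by side without a test. Colchicine at 1000 uM gave −4.20 for Baat and −2.12 for Slc10a1, and at 2000 uM −3.07 and −0.31. Zidovudine, a nucleoside analogue, led to no call of a member at 1000 uM (0.0141% of genes called), with Baat at −0.47. At 14800 uM it lowered 6 members (9.72% of genes lower), with Baat at −2.66. Gentamicin led to no call of a member at 1000 or 2900 uM (0 and 0.0914% of genes called).

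The dose series of the fifth campaign had 3 doses of 3 arrays at 1 d. In limma without a replicate block, no slope of a member passed an adjusted p of 0.05 (0.00117% of all slopes did). Of the 48 slopes, 1 had an unadjusted p under 0.05. Same-numbered arrays deviated together in 5 of the 6 series, and with replicate number as a block the rise of Cyp8b1 over clofibrate doses passed, with 0.55 per dose step (adjusted p = 0.0166, against 0.854 without the block). With the block 1.03% of all clofibrate slopes passed. Clofibrate at 125 uM gave 7.61, 5.75 and 6.82 for replicates 1 to 3, at 250 uM 8.84, 5.92 and 7.23 and at 500 uM 9.33, 6.38 and 7.79, against 6.12, 5.09 and 5.52 in the controls. Within each number the values rose with dose, and replicate 2 lay below the others at every dose.

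Methapyrilene, a withdrawn antihistamine, was the series whose numbers did not pair. Baat gave 8.56, 5.18 and 9.07 for replicates 1 to 3 at 100 uM, 5.98, 9.78 and 6.41 at 300 uM and 6.06, 9.68 and 5.04 at 500 uM, against 9.74, 9.91 and 9.96 in controls. Replicate 2 was low at 100 uM and close to the controls at both higher doses, opposite to the other arrays. Without replicate 2 the slope of Baat was −1.63 per step (limma adjusted p = 0.0107) and that of Cyp27a1 −0.28 (adjusted p = 0.0315), both of them passing, in a fit where 15.4% of all slopes passed. With all 3 replicates the Baat slope was −0.34 (adjusted p = 1). That replicate was left out after its values were seen to stand apart. In the allyl alcohol series, replicate 2 also lay low for Baat at 20 uM, with 8.08 against 10.145 and 10.147. At 30 uM it gave 5.525 against 10.206 and 9.994, and at 40 uM 10.048 against 10.077 and 9.966. The labels were kept, and whether arrays of these compounds were exchanged was not tested.

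**Figure D5:**
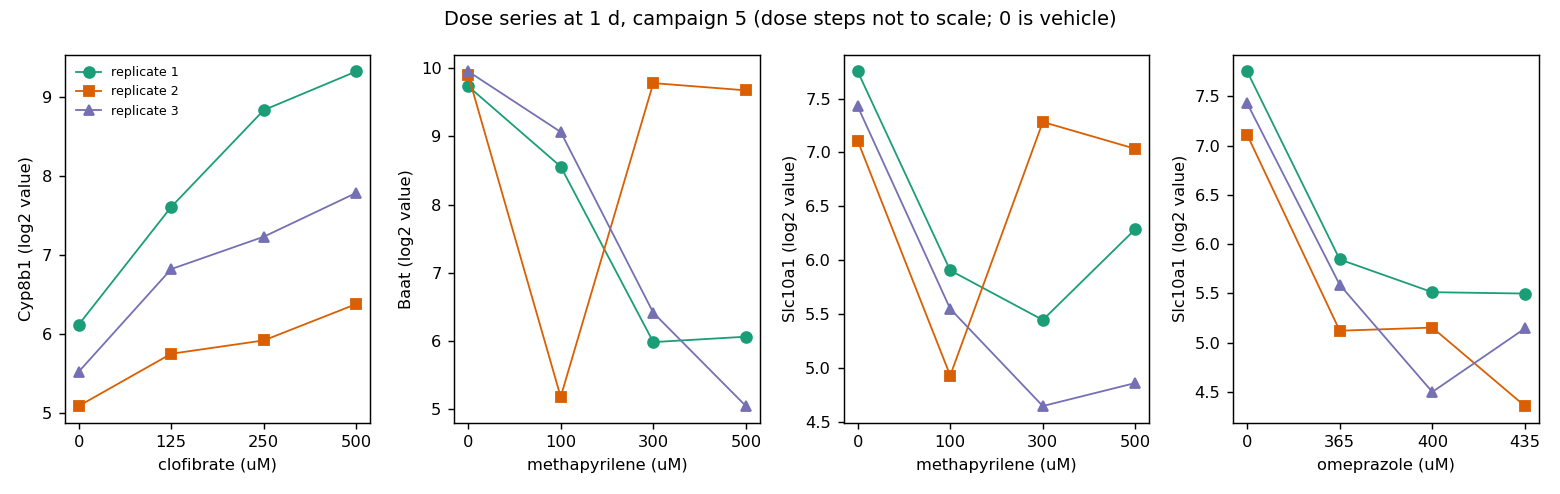
Log2 values (vertical axis) of each replicate, joined by number, over vehicle (0) and 3 doses in uM (horizontal axis, steps not to scale) in the fifth campaign. Cyp8b1 rises with clofibrate in each replicate, replicate 2 of methapyrilene goes against the others, and Slc10a1 with omeprazole lies between 4.36 and 5.85 against 7.11 to 7.75 in controls.

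Repeats of 7 exposures in the later campaigns gave 56 pairs, none of which was called different between campaigns in limma. Of all genes 0% were, and 1 of the 56 had an unadjusted p under 0.05. Most had 3 treated arrays in each campaign, and large differences could go uncalled. Baat with methapyrilene at 300 uM differed by 1.486 (SE 1.035), so the absence of calls does not show agreement. Slc10a1 with omeprazole at 400 uM was called lower in both, −1.40 and −2.38. Cyp8b1 with clofibrate at 500 uM gave 0.95 in the first campaign and 2.26 in the fifth (limma adjusted p = 0.358), neither called. Baat with chlorpromazine at 1 d gave −1.84 in the first campaign (adjusted p = 0.00186) and −1.39 in the fourth (adjusted p = 0.0196), the latter not called. Baat with methapyrilene at 300 uM gave −3.96 in the first and −2.47 in the fifth campaign, where replicate 2 stood apart and no member was called.

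Further genes of the pathway were lowered more often than raised. Of 17 other synthesis and conjugation genes measured, 11 were lowered by at least 1 compound, as were 43.7% of all genes. Of their pairs 14.8% were called lower and 2.26% higher, against 4.97% and 3.73% of all pairs. The median change was −0.11, against 0.01 over all genes. Akr1c14 (3-alpha-hydroxysteroid dehydrogenase) was lowered by 59 compounds, down to −3.16 with nimesulide, and Slc27a2, a very long chain acyl-CoA synthetase, by 55. Amacr, the racemase of the side chain, was the one raised most often, by 10. Sult2a1, Sult2a2 and Cyp7b1 were called with none.

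Of 16 other transport genes, 12 were lowered by some compound, as were 43.7% of all genes. Their pairs were called lower in 22.6% and higher in 2.55%, against 4.97% and 3.73% of all pairs, and the median change was −0.23. Pdzk1, a scaffold of membrane transporters, was lowered by 78 compounds and Slco1b2, a sinusoidal uptake carrier, by 71, down to −3.41 with ethinylestradiol. The canalicular conjugate pump Abcc2 went the other way, raised by 23 compounds, up to 1.83 with pantoprazole, and lowered by 4, and the basolateral pump Abcc4 was raised by 11 and lowered by 18.

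Of 21 regulators, 13.4% of pairs were called lower and 9.45% higher, against 4.97% and 3.73% of all pairs. Fgfr4, the hepatocyte receptor of the intestinal signal that restrains bile acid synthesis, was lowered by 53 compounds, Nr5a2 (LRH-1) by 52 and the bile acid receptor Nr1h4 by 25, down to −2.37 with pantoprazole. The small Maf protein Mafg was raised by 61 compounds and Cebpb and Fgf21 by 56 each. Cebpb and Fgf21 are also known as stress-responsive genes.

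The genes whose changes ran most alike to those of each member over the 125 compounds were Acot12 for Baat (r = 0.91), Pxmp2 for Slc10a1 (0.94), Nr1i3 for Cyp8b1 (0.89), Agpat3 for Abcb11 (0.74), Bbox1 for Abcb4 (0.73), Acp2 for Cyp27a1 (0.72), Akr1c1 for Cyp7a1 (0.55) and Ttc17 for Nr0b2 (0.50). These r values are over comparisons that share controls, and both genes of a pair were read on the same arrays. Each is the highest of 14217 genes, over which the 95th percentile of r ran from 0.24 (Cyp7a1) to 0.63 (Baat). The r of Cyp7a1 rests on a probe set near the low end of the scale.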

How the data were processed

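The deposited table held log2 values of 31099 probe sets on 939 arrays, and the submitters' notes name RMA (background correction, quantile normalization and summary of probes, on the log2 scale) without a version, while the study's methods name the frozen form of it for the whole collection. RMA makes arrays comparable by giving them nearly the same distribution, which hides a shift of all genes, and array medians lay between 5.41 and 5.73. Depth has no meaning for arrays, and the number of arrays limits the precision. Probe sets with 1 gene symbol (20832) were kept, 20764 of them were matched to RefSeq on GRCr8, and each gene was represented by its probe set with the highest mean.

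For each compound limma 3.58.1 (R 4.3.3) was fitted to treated arrays and to the controls of the campaign whose descriptions name the compound, with exposure time as a factor. Calls needed an adjusted p of 0.01 and 1.5-fold, the bounds of the study's methods. Where the first 3 campaigns held 2 doses, the higher one entered. Controls over time had the date in their titles as a block, time differences were interactions, and dose slopes scored doses as −1, 0 and 1 with an adjusted p of 0.05. The numbers in control descriptions that had run on by filling down were read as TGF Beta-1 and MLN-518. In 5 dose series all 9 same-numbered pairs correlated above 0.1 in their deviations (mean r 0.62 to 0.70). The main slope fit still had no replicate block, which was fitted as an alternative. Over the 125 comparisons, also fitted without the block, 581 of 963 same-numbered pairs correlated above 0.1. In 45 of these comparisons every same-numbered pair did. There the block called 98 decreases and 13 increases, against 87 and 12 without it, and lost 3 calls, none of a named compound. Alternatives were no variance moderation, other scalings, probe sets, filters, controls, single times, hybridization day and a replicate block. Scripts were tested on simulated data. Promoters were searched on both strands, with Python 3.11.15. The genes and lists were chosen with earlier results of these data known, and named compounds were the 3 largest called changes of a member in each direction and 4 compound sets. The column list left 0 columns without a sample.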

Additional observations from a re-analysis of the deposited data

Results flagged for a closer look

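The change of Baat with colchicine differed between the exposure times by −1.59, as tested above. Among groups of 4 to 10 arrays, 9 of 112 sets of values (8 genes in 14 groups) had 1 array far from the others, where chance gives about 1 in 20. In the chlorpromazine repeat of the fourth campaign, an array of 6 gave 4.787 for Cyp7a1, with the next at 3.86, and the lowest Cyp27a1 array gave 9.41, with the next at 10.13. The other 7 were vehicle controls, each the lowest array of its set. In control set 1, Abcb11 gave 9.292 and Abcb4 8.162 at 0.67 d, and Baat 9.044 at 1 d. In control set 5, Abcb11 gave 9.337 at 0.67 d, and Cyp27a1 gave 9.947 and Abcb4 7.928 at 1 d. In control set 8, Baat gave 9.34 at 1 d. Cyp8b1, Slc10a1 and Nr0b2 had none.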

How the results depend on the processing

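Over the compound comparisons 254 decreases and 36 increases were called. Fits of single times, with fewer arrays, called 151 and 16 at 0.67 d and 169 and 23 at 1 d. These totals kept 144 and 15 of the main calls at 0.67 d and 162 and 22 at 1 d. A bound of 2-fold left 147 and 16. Leaving out 1 replicate number gave 200 to 237 decreases and 26 to 33 increases, and without replicate 1 Slc10a1 with amitriptyline went from −1.34 to 0.003. The remaining alternatives gave 233 to 284 decreases and 26 to 40 increases, the replicate block 259 and 37. Of 91 named changes, 4 lost the call with all controls of the campaign, 4 with array medians subtracted and 4 with the replicate block. Without variance moderation 10 did, and each of these losses is given above beside its value. Leaving out replicate 1 lost 23 of the 91, replicate 2 21 and replicate 3 9. Fits of 0.67 d alone lost 35, those of 1 d alone 34, and the 2-fold bound 37. None reversed. Called increases of Slc10a1 numbered 5 with all controls.

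Time differences were called for 1 pair, for 2 with array medians subtracted (also Nr0b2 with isotretinoin), for 2 without the lowest-expressed genes (also Baat with ifosfamide), for 3 with the replicate block (also Nr0b2 with isotretinoin and Baat with methylenedianiline), and for 0 to 1 on leaving out a replicate. Dose slopes were called for 0 pairs in the main fit without a block, for 1 with the replicate block and for 0 to 2 on leaving out a replicate. No alternative called a member between campaigns or in controls over time. The causes were not tested.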
